A study of Mus musculus with 47 samples.

Results

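The 37 genes described here encode the collagens, proteoglycans and glycoproteins of the extracellular matrix, the enzymes that fold and crosslink collagen, surface receptors used to recognise fibroblasts and pericytes, and proteins of the contractile apparatus. They were taken by name from a deposited table of 53697 genes, of which 21832 are nuclear and protein coding. Of the 37, 35 reached at least 5 scaled TPM (TPM, a length-corrected transcript abundance, rescaled to the nuclear coding total and a library factor) in at least 4 libraries and were tested among 10638 genes. Lum and Pdgfra did not and are given by their levels only. Postn, Lama4 and Col6a3 did so only through WT libraries, where their means were highest. Calls of these genes as lower than WT are therefore partly fixed by the filter and are no separate support. Because TPM are length-corrected, levels can be set side by side between genes.

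The study cultured primary microglia, the resident macrophages of the brain, from mouse forebrain and asked how APOE genotype changes them, at rest and after they take up myelin. E4 and E3 mice (Taconic models) carry human APOE ε4 or ε3 in place of both mouse Apoe alleles, Apoe+/- and Apoe-/- mice (1 Jackson Laboratory model) lack 1 or both alleles, and WT mice (another Jackson Laboratory model) are C57BL/6, the strain named for every group. Myelin-treated cells were exposed for 3 h and collected 21 h later, and the others were left untreated. There were 5 libraries each of E4 myelin, E4 untreated, Apoe+/- untreated, Apoe-/- myelin, Apoe-/- untreated, WT myelin and WT untreated, and 4 each of E3 myelin, E3 untreated and Apoe+/- myelin. All groups shared the culture medium with serum and the same low-input library kit. The labels give no age, and do not say whether replicates are separate animals, so the p-values measure the spread between libraries, which may be technical. Human APOE, absence of Apoe and the breeding line cannot be told apart where a group is compared with WT.

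Fibroblasts build fibrillar matrix by secreting procollagens that the chaperone Serpinh1 escorts and that lysyl oxidases crosslink outside the cell. Pericytes and vascular smooth muscle cells wrap brain vessels, share a basement membrane of collagen IV, laminin and nidogen with the endothelium, and contract through smooth muscle actin and its partners. In brain these genes are known mainly from meninges and vessel walls, and microglia are not a main source of fibrillar collagen. In bulk libraries, fewer cells of a type and less RNA per cell cannot be told apart.

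Apoe checked the Apoe-/- label, at 65.1 to 78.6 scaled TPM in untreated Apoe-/- libraries and 43286 to 61356 in untreated WT libraries (log2 difference -9.57, two-sided exact permutation test, p = 0.00794, the smallest that 5 against 5 allows). Its level does not check the Apoe+/- label: libraries so labelled held 20362 to 77571 scaled TPM untreated, on both sides of the WT range. Depth cannot be read from TPM and is unknown here. Nuclear coding genes held 0.468% to 27.3% of a library's TPM, and 4 Apoe+/- libraries held under 6% (untreated replicates 3 and 5, myelin replicates 1 and 2). The lowest, 0.468%, was untreated Apoe+/- replicate 5, so its levels are the least certain. A single row outside the nuclear coding genes, Gm23935, held 69.4% to 99.0% of a library's TPM and was removed by the rescaling. Correlation of replicates on the log2 scale across tested genes was lowest in untreated Apoe+/- cells, at 0.802, where genes are not independent replicates. Untreated Apoe-/- replicate 5 stood apart in many of the 37 genes, and the summed levels and the log2 fold changes that it moved by over 1.5 times are given with and without it.

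Promoter sequence is shown for 4 members that stand for the fibrillar collagens (Col1a2, Col3a1) and the contractile genes (Acta2, Myl9), because both sets were low in Apoe-/- cells but parted in untreated Apoe-/- replicate 5. Each line holds the 250 bases before the RefSeq start site (GRCm38.p6), read 5′ to 3′ on the gene's strand: reverse for Acta2 (chr19:34255374-34255623), forward for Col1a2 (chr6:4505368-4505617), Col3a1 (chr1:45311288-45311537) and Myl9 (chr2:156775214-156775463). Capitals mark an MCAT element (GGAATG) in Acta2 and, on the other strand, Col3a1, a TATAAA in Col3a1, a CCAAT in Col1a2 and a CArG box in Myl9. The CArG box was searched as CC, then 6 bases of A or T, then GG, with no mismatch. Near matches stayed in small letters, such as ccctatatgg and ccttgtttgg in Acta2, each 1 base off, so Acta2 is not shown to lack such a box.
Acta2: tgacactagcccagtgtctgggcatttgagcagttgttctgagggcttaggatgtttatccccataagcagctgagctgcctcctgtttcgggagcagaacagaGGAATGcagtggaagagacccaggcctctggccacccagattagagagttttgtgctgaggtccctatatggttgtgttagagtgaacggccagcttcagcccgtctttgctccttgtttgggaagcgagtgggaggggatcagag
Col1a2: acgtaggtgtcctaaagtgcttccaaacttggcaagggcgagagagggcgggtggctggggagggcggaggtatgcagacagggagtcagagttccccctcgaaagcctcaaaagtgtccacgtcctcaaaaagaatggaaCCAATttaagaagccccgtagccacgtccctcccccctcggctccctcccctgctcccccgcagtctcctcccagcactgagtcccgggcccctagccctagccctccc
Col3a1: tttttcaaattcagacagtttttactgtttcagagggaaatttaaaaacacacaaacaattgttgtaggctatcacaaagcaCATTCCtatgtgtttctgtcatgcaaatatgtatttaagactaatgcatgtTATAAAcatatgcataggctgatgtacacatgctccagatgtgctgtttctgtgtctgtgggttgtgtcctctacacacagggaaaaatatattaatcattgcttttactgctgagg
Myl9: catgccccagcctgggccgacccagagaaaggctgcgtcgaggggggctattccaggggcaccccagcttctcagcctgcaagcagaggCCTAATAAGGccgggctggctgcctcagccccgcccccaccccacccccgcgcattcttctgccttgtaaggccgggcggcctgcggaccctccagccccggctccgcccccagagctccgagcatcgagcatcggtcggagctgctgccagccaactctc
Of the 37 genes, 22 had a promoter in the RefSeq table, searched on both strands. GGAATG stood in 5 of 22 (22.7%) and in 14.4% of all 27025 genes, TATAAA in 4 of 22 (18.2%) and 14.3%, CCAAT in 6 of 22 (27.3%) and 37.5%, and a CArG box without mismatch in 1 of 22 (4.55%) and 1.62%. None of the 4 motifs overlapped another in the windows shown. A match is a description of the letters and is not a measured binding site.

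Summed over the 37 genes, the level in untreated cells was 4088 ± 624 scaled TPM in E4, 7733 ± 828 in E3, 1068 ± 392.4 in Apoe+/-, 1038 ± 701 in Apoe-/- and 8474 ± 756 in WT (SD, n = 4 for E3, 5 for the others). The E4 libraries read 4897, 4041, 4267, 4079.7 and 3156, the E3 libraries 8615, 8219, 6819 and 7279.9 and the WT libraries 9215, 8272, 8721, 8894 and 7267. E4 did not overlap either E3 or WT, while E3 and WT overlapped. The Apoe+/- libraries read 803, 582, 1040.2, 1391 and 1521 and the Apoe-/- libraries 802, 699, 882, 535 and 2269.6, all below the lowest E4 library, and the highest of them was Apoe-/- replicate 5, without which the Apoe-/- mean was 729.8 ± 149.98 (SD, n = 4). After myelin the sum was 3033 ± 66.4 in E4, 5052 ± 609 in E3, 699 ± 396 in Apoe+/-, 756 ± 321 in Apoe-/- and 9244 ± 1628 in WT, and E4, E3 and WT were then apart from one another in every library. The untreated sum came to 0.411 ± 0.0506% of nuclear coding transcripts in E4, 0.778 ± 0.0682% in E3 and 0.889 ± 0.0901% in WT. WT, E3 and E4 had the 3 highest means of the 5 genotypes, in this order, for 21 of 37 genes in untreated cells. After myelin this held for 31 of 37. Genes with Apoe-/- or Apoe+/- placed between them, such as Dcn, are not in these counts even where WT was above E3 and E3 above E4. How often this order holds over all tested genes was not counted, so these counts have no background.

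**Figure D1:**
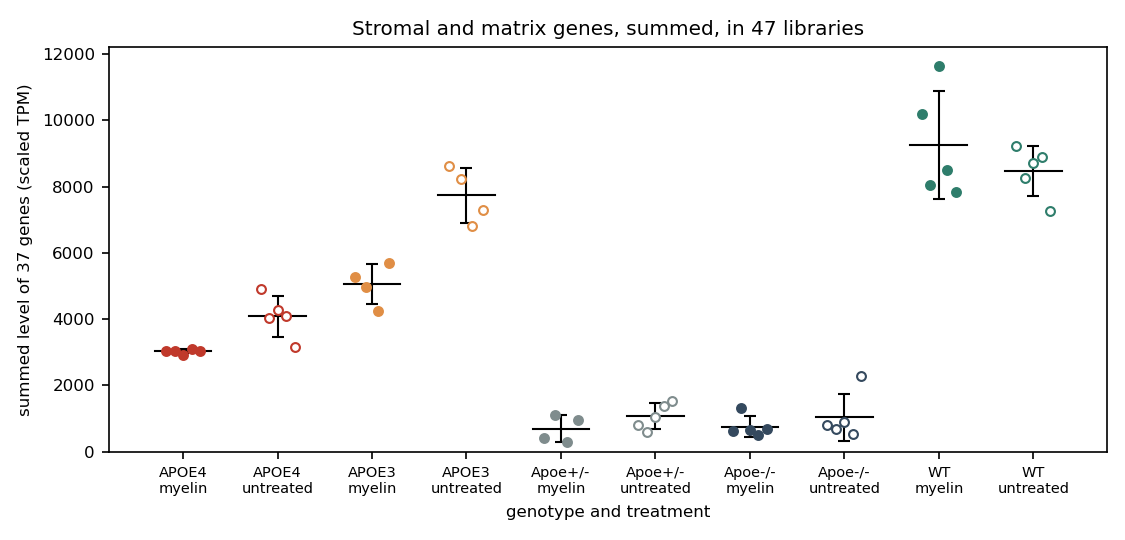
Summed level of the 37 genes (scaled TPM, y axis) in each of 47 libraries by genotype and treatment, filled points for myelin and open points for untreated, with group mean and SD. The E4 libraries lie below E3 and WT, and the Apoe+/- and Apoe-/- libraries lie lowest, with 1 untreated Apoe-/- library above its group.

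Acta2 (smooth muscle actin) and Sparc (a secreted collagen-binding protein) were the most abundant of the 37 in WT, and Lum and Pdgfra the least. In untreated WT libraries Acta2 read 1264, 1189, 1393, 1299.9 and 1139 scaled TPM, and Sparc 1299, 1227, 1246, 1200.1 and 944. Lum, a keratan sulfate proteoglycan of fibroblasts, had 0.301, 0.553, 0.303, 0.388 and 0.280 in E4, 2.04, 1.20, 1.27 and 1.41 in E3 and 1.60, 1.23, 1.28, 1.18 and 1.47 in WT, all untreated. Pdgfra, the receptor for PDGF-A on fibroblasts and oligodendrocyte precursors, had 0.649, 1.09, 1.30, 1.45 and 0.784 in E4, 1.03, 0.566, 0.788 and 0.917 in E3 and 2.65, 1.63, 2.19, 3.63 and 1.61 in WT. For Lum every E4 library was below every E3 and WT library, and E3 and WT overlapped. For Pdgfra E4 and E3 overlapped, and both lay below every WT library.

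The cell type named for these genes was checked against 18 further fibroblast markers and 12 further mural markers outside the 37. Of the fibroblast markers 8 were abundant enough to test. The 18 summed in untreated cells to 115 ± 13.7 scaled TPM in E4, 157 ± 13.5 in E3, 54.2 ± 35.4 in Apoe+/-, 52.0 ± 66.2 in Apoe-/- (22.4 ± 5.03 without replicate 5, n = 4) and 214 ± 13.5 in WT. Of the 8, limma called 5 lower and 1 higher in untreated E4 against WT (29.2% and 36.0% of all tested genes). In E3 it called 1 lower and 2 higher (24.0% and 33.2%). In Apoe-/- it called 6 lower and 0 higher (32.0% and 25.9%), and in Apoe+/- 7 and 1 (31.5% and 25.9%). Between E4 and E3, 4 were lower in E4 and 0 higher (10.2% and 9.41%). Of the mural markers only Cnn1 (calponin, a smooth muscle protein) and Anpep passed. The 2 went opposite ways in untreated Apoe-/- and in untreated Apoe+/- against WT, where limma called Cnn1 lower and Anpep higher. The 12 mural markers summed to 130.3 ± 11.6 scaled TPM in untreated E4, 188 ± 34.2 in E3, 35.4 ± 21.6 in Apoe+/-, 24.5 ± 7.78 in Apoe-/- and 91.0 ± 3.61 in WT, of which Cnn1 made up 118 in E4, 175 in E3, 11.8 in Apoe+/-, 6.94 in Apoe-/- and 81.6 in WT. The pericyte markers Rgs5, Kcnj8 and Abcc9 averaged 0.148, 0.159 and 0.1303 in untreated E3 and 0.0734, 0.0238 and 0.116 in untreated WT, and Myh11 (smooth muscle myosin) averaged 0.135 in WT. These 4 transcripts were near 0 while Cnn1 was measured at the levels above, so the pericyte name does not rest on Rgs5, Kcnj8 or Abcc9 here. Among the 37, Pdgfrb and Cspg4, which also mark pericytes, were measured, at 15.5 to 24.1 and 17.6 to 23.6 scaled TPM in untreated WT. The set is called stromal and matrix genes from here on.

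**Figure D2:**
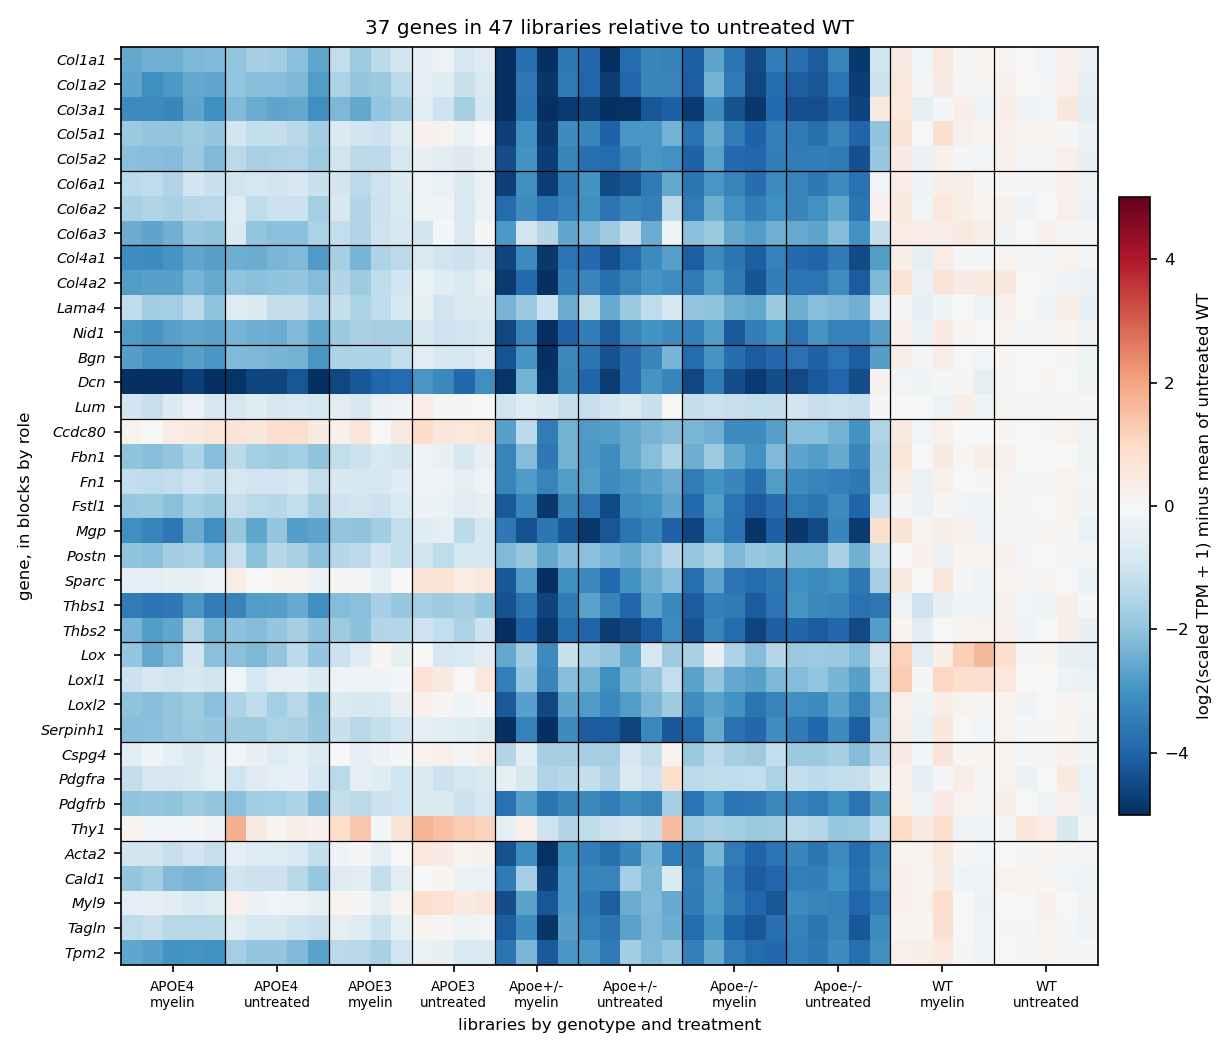
Difference in log2(scaled TPM + 1) from the mean of untreated WT (colour) for the 37 genes in blocks by role (rows) and the 47 libraries by genotype and treatment (columns). Nearly every gene is low in Apoe+/- and Apoe-/-, Dcn is low in E4 and E3 as well, and Ccdc80 is not low in E4 or E3.

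Between the human APOE genotypes, 29 of the 35 tested genes were lower in untreated E4 than in untreated E3 and 0 were higher (limma, Benjamini-Hochberg adjusted p under 0.05, and 0 higher at an unadjusted p under 0.05), where 10.2% of all tested genes were called lower and 9.41% higher. The median log2 fold change was -1.12 over the 35 genes and 0.02 over all tested genes. Among the genes called, the strongest by fold change were Bgn (-1.70), Loxl2 (-1.57), Col3a1 (-1.55), Col4a1 (-1.53), Tpm2 (-1.53) and Col1a2 (-1.52). Mgp, Col6a2, Col6a1, Sparc, Lama4 and Ccdc80 were not called.

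All 5 fibrillar collagens, which form the banded fibres of connective tissue, were lower in E4. Col1a1 (chr11:94936224-94953042), the main chain of type I collagen, had 87.8, 111, 103, 81.7 and 57.4 scaled TPM in E4, against 260.2, 293, 196 and 222 in E3 (-1.47 ± 0.40 log2, SE, adjusted p = 0.00724 by limma). Col1a2, its partner chain, had 59.6, 53.5, 53.3, 49.1 and 33.0 in E4, against 169, 156, 109 and 141 in E3 (-1.52 ± 0.41, adjusted p = 0.00680). Col3a1, of the thin reticular fibres, had 25.1, 20.3, 17.9, 19.2 and 13.1 in E4, against 78.3, 57.4, 36.4 and 64.0 in E3 (-1.55 ± 0.56, adjusted p = 0.0471). For each of the 3 genes every E4 library was below every E3 library. Col5a1 (-1.32) and Col5a2 (-1.07), chains of the type V collagen that starts fibrils, were lower too.

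Of 4 basement membrane genes, 3 were lower in E4. Col4a1 (chr8:11198423-11312826), a chain of the collagen IV network, had 39.9, 38.8, 45.2, 46.9 and 30.5 scaled TPM in E4, against 133, 111, 104 and 123 in E3 (-1.53 ± 0.23, adjusted p = 4.67e-06 by limma). Col4a2, its partner, was at -1.51, Nid1, which links laminin to collagen IV, at -1.48, and the laminin chain Lama4, not called, at -0.38. Type VI collagen, which forms beaded microfilaments around cells, gave 1 call of 3. Col6a1 had 19.1, 20.7, 20.1, 22.1 and 17.7 in E4, against 32.3, 30.9, 23.1 and 30.4 in E3 (-0.52 ± 0.37, adjusted p = 0.356), Col6a2 was at -0.77, also not called, and Col6a3 was lower at -1.24.

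Of the proteoglycans, Bgn (chrX:73483602-73495933), biglycan, had 55.2, 54.2, 50.9, 50.3 and 33.8 scaled TPM in E4, against 176, 150.2, 141 and 169 in E3 (-1.70 ± 0.20, adjusted p = 6.06e-08 by limma). Dcn (chr10:97479609-97518143), decorin, which binds collagen fibrils, had 3.17, 4.19, 4.24, 5.51 and 2.69 in E4, against 15.5, 12.4, 7.17 and 14.1 in E3 (-1.40 ± 0.50, adjusted p = 0.0449). Neither gene had E4 and E3 libraries that overlapped.

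Of the 9 matrix glycoproteins, 6 were lower in E4. Fn1 (fibronectin) had 147, 136, 138, 149 and 117 scaled TPM in E4, against 238, 224, 191 and 222 in E3 (-0.67 ± 0.22, adjusted p = 0.0290 by limma). Thbs1 (thrombospondin 1), known for activating latent TGF-β, had 62.2, 90.6, 93.0, 110.0 and 76.5 in E4, against 195, 185, 202 and 166 in E3 (-1.12 ± 0.18, adjusted p = 2.22e-05). Postn (periostin) had 3.15, 1.22, 2.42, 1.96 and 1.20 in E4, against 3.57, 2.80, 3.94 and 3.98 in E3 (-0.65 ± 0.19, adjusted p = 0.0152). The E4 and E3 libraries were apart for Fn1 and Thbs1 and overlapped for Postn. Fbn1, the microfibril protein fibrillin 1, Fstl1, a secreted follistatin-like glycoprotein, and Thbs2, a second thrombospondin, were lower at -1.25, -0.98 and -0.74.

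The remaining 3 glycoproteins were not called. Sparc had 1527, 1148, 1255, 1297 and 969 scaled TPM in E4, against 1857, 1874, 1515 and 1677 in E3 (-0.49 ± 0.23, adjusted p = 0.139 by limma). Mgp, an inhibitor of matrix calcification, had 44.0, 26.1, 41.3, 23.3 and 25.7 in E4, against 109, 119, 66.1 and 89.4 in E3 (-1.57 ± 0.60, adjusted p = 0.0611). The E4 and E3 libraries overlapped for Sparc and were apart for Mgp. Ccdc80, a secreted matrix protein, had 27.5, 25.1, 31.4, 31.2 and 22.7 in E4, against 32.5, 24.6, 24.1 and 25.4 in E3 (0.05 ± 0.19, adjusted p = 0.905), the only positive difference among the 35.

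All 4 genes of collagen folding and crosslinking were lower in E4. Serpinh1, the collagen chaperone, had 197, 192, 225, 216 and 180.4 scaled TPM in E4, against 489, 466, 444 and 405 in E3 (-1.15 ± 0.25, adjusted p = 0.00105 by limma). Lox, lysyl oxidase, had 11.8, 10.3, 12.8, 20.6 and 13.0 in E4, against 53.1, 29.0, 31.0 and 35.6 in E3 (-1.38 ± 0.35, adjusted p = 0.00455). Loxl1 and Loxl2, related oxidases, were at -0.94 and -1.57.

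All 3 tested surface receptors were lower in E4. Pdgfrb, the PDGF receptor of mural cells, had 3.73, 5.04, 5.18, 5.96 and 3.51 scaled TPM in E4, against 11.5, 11.4, 8.56 and 9.98 in E3 (-1.01 ± 0.17, adjusted p = 5.00e-05 by limma). Cspg4 (NG2), found on pericytes and oligodendrocyte precursors, had 18.4, 15.5, 12.6, 14.4 and 12.01 in E4, against 23.2, 23.9, 19.2 and 24.0 in E3 (-0.61 ± 0.15, adjusted p = 0.00374). Thy1, a surface protein of fibroblasts and of neurons, had 40.1, 14.9, 11.9, 14.1 and 12.7 in E4, against 37.7, 31.8, 28.1 and 24.9 in E3 (-0.82 ± 0.28, adjusted p = 0.0371), and for Thy1 the highest E4 library exceeded all E3 libraries.

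All 5 contractile genes were lower in E4. Acta2 had 924, 796, 811, 732 and 556 scaled TPM in E4, against 1800.4, 1648, 1431 and 1451 in E3 (-1.06 ± 0.20, adjusted p = 1.33e-04 by limma). Tagln (transgelin), an actin-binding protein, had 629.7, 489.9, 516, 443 and 401 in E4, against 1010.4, 935, 781 and 809 in E3 (-0.84 ± 0.20, adjusted p = 0.00221). Tpm2 (tropomyosin) was at -1.53, Cald1 (caldesmon) at -1.14 and Myl9 (a myosin light chain) at -0.81.

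**Figure D3:**
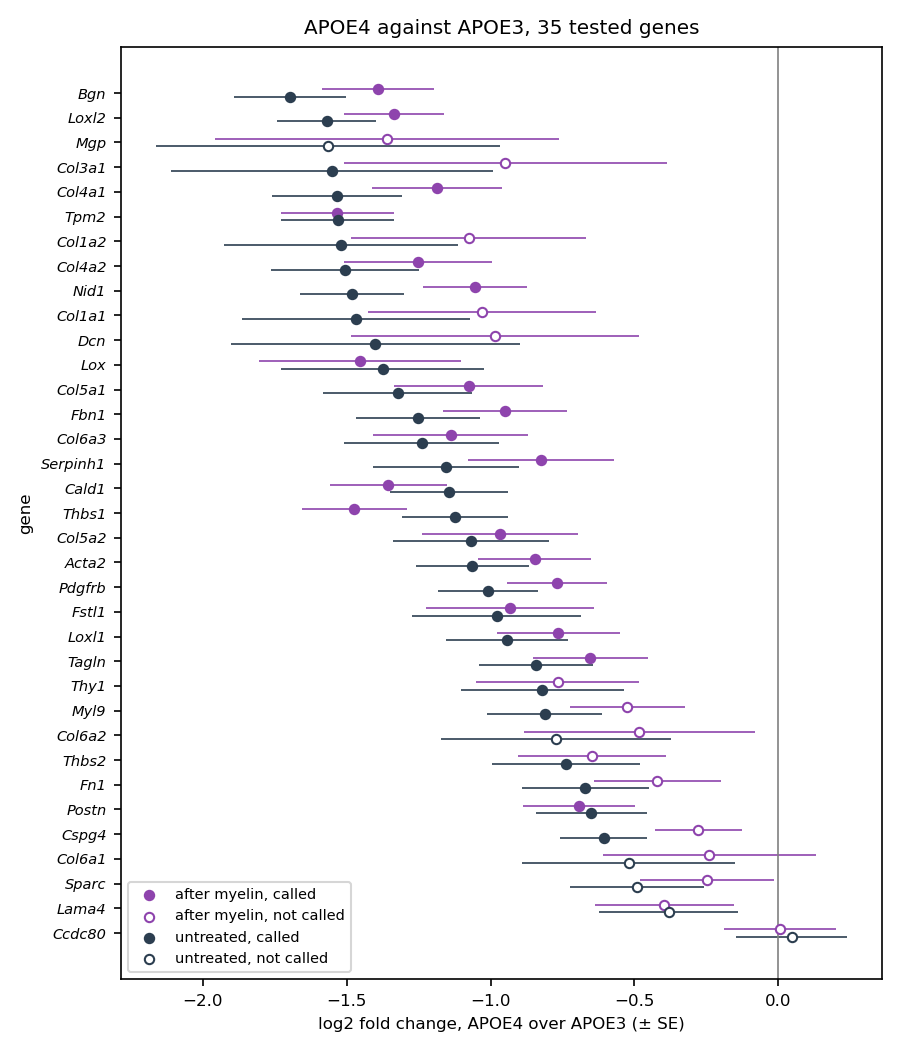
Log2 fold change of E4 over E3 (x axis, ± SE from limma) for the 35 tested genes, untreated and after myelin, filled where called. All but Ccdc80 lie left of 0, with 29 called in untreated cells and 20 after myelin.

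After myelin, 20 of the 35 genes were lower in E4 than in E3 and 0 were higher (limma, 0 higher at an unadjusted p under 0.05), where 5.40% of all tested genes were lower and 7.95% higher. The median log2 fold change was -0.95, against 0.02 over all tested genes. Among the genes called, Tpm2 (-1.53), Thbs1 (-1.47), Lox (-1.45), Bgn (-1.39) and Cald1 (-1.36) were the strongest. Col1a1 had 59.0, 65.3, 65.6, 73.6 and 74.7 scaled TPM in E4, against 146, 99.3, 140.0 and 181 in E3, with no overlap, yet was not called (-1.03 ± 0.40, adjusted p = 0.0814 by limma). With untreated Apoe-/- replicate 5 left out of the 38 libraries that share the fit's estimate of spread, 27 genes were lower after myelin and 33 in untreated cells. The shares over all tested genes in that fit are not given here.

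Other markers moved with the same genotypes. Over all tested genes, 10.2% were lower and 9.41% higher in untreated E4 than in untreated E3. The summed level of 12 astrocyte markers in untreated cells was 2439 ± 521 scaled TPM in E4, 1159.8 ± 93.1 in E3 and 148 ± 11.1 in WT, the opposite order to the summed stromal and matrix genes (libraries 1879.7 to 3240.5 in E4 and 1030.3 to 1251 in E3), and 9 of the 12 were higher in E4 than in E3 with 0 lower. Of 14 microglia markers, 6 were higher in E4 than in E3 and 0 lower, with sums of 22592 ± 2095 in E4 and 17960.2 ± 1378 in E3. Of the tested markers, 4 of 4 oligodendrocyte lineage and 2 of 4 neuron genes were higher and 2 of 4 endothelial genes lower, and sums of these lists in untreated cells were 171 ± 23.2, 113 ± 10.97 and 25.3 ± 1.83 in E4, against 96.2 ± 4.20, 85.5 ± 4.72 and 47.3 ± 3.15 in E3. Of 8 cell cycle markers 5 were lower, with sums of 162 ± 16.1 in E4 and 263 ± 25.3 in E3. Nuclear coding genes held 12.1 ± 3.24% of TPM in E4 and 13.6 ± 2.33% in E3. The part of these differences in the result was not tested.

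**Figure D4:**
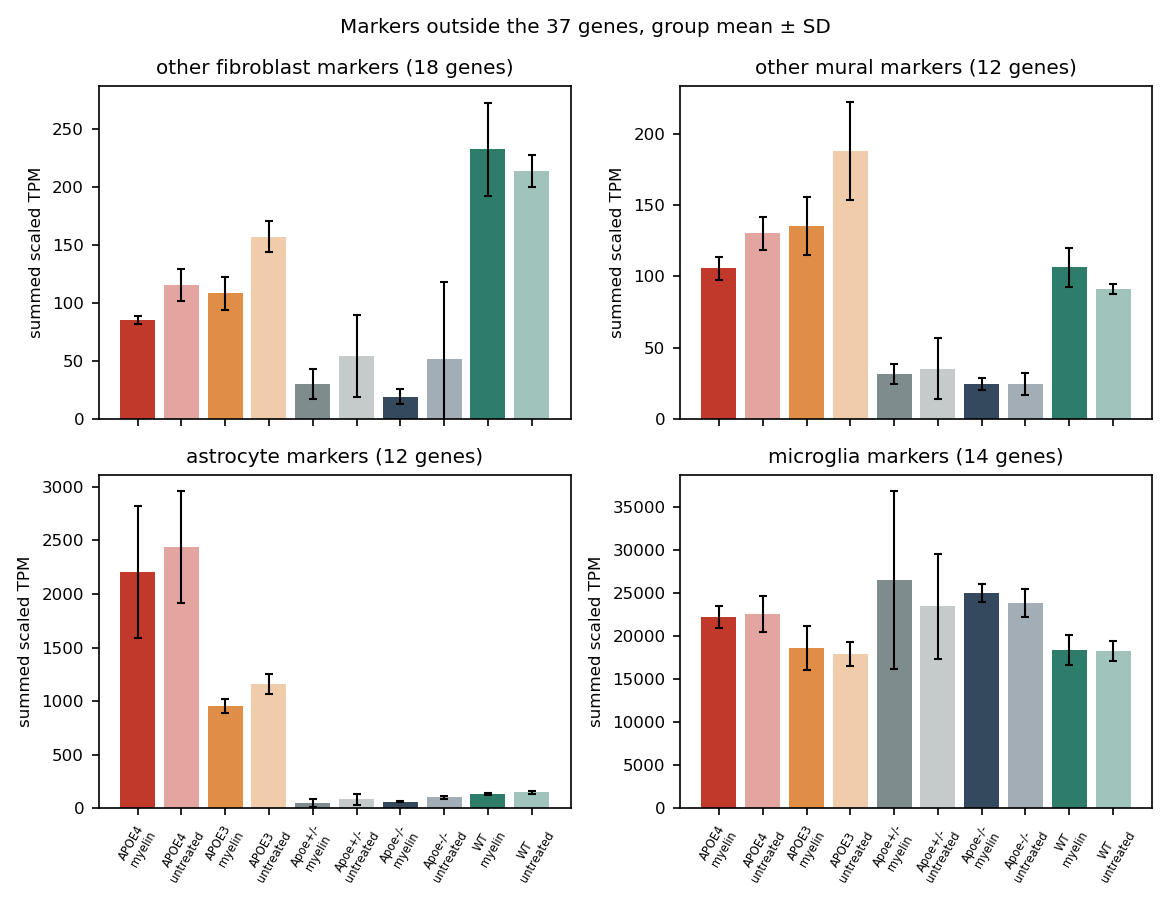
Summed scaled TPM (mean ± SD, bars from 0) of 4 marker lists outside the 37 genes, by genotype and treatment. Other fibroblast markers are highest in WT, astrocyte markers are highest in E4, and the mural sum is mostly Cnn1 in E4, E3 and WT.

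Against WT, genes were called in both directions in untreated E3 and only lower after myelin. Of 35 genes, 4 were higher and 10 lower in untreated E3 than in untreated WT, where 33.2% of all tested genes were higher and 24.0% lower. The lower share is near that background and the higher share is under it. Without untreated Apoe-/- replicate 5 the counts were 4 higher and 19 lower. The shares over all tested genes in that fit are not given here, so whether 19 is near them cannot be read. After myelin 30 of 35 were lower in E3 than in WT and 0 higher (limma, 0 higher at an unadjusted p under 0.05), where 16.4% and 19.2% of all tested genes were called in those directions. The median log2 fold change was -0.51 untreated and -1.25 after myelin. Both counts of lower genes include Lama4, which passed the filter only through WT, as did Postn and Col6a3.

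The 4 genes higher in untreated E3 were Thy1 (1.38 ± 0.28), Ccdc80 (0.65 ± 0.19), Myl9 (0.63 ± 0.20) and Sparc (0.55 ± 0.23). Thy1 had 37.7, 31.8, 28.1 and 24.9 scaled TPM in E3, against 10.3, 16.8, 14.6, 5.90 and 10.4 in WT (adjusted p = 1.10e-04 by limma), and Sparc 1857, 1874, 1515 and 1677, against 1299, 1227, 1246, 1200.1 and 944 (adjusted p = 0.0425). Neither gene overlapped between these groups. Acta2 was at 0.33 and Tagln at -0.04, both not called.

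Dcn and Thbs1 were the genes furthest below WT in untreated E3. Dcn had 15.5, 12.4, 7.17 and 14.1 scaled TPM in E3, against 131, 125, 132, 126 and 106 in WT (-3.28 ± 0.50, adjusted p = 1.51e-06 by limma). Thbs1 (chr2:118111876-118127133) had 195, 185, 202 and 166 in E3, against 738, 576, 548, 781 and 593 in WT (-1.78 ± 0.18, adjusted p = 5.34e-10). Both sets of libraries were far apart. Thbs2 (-1.23), Postn (-1.01), Nid1 (-0.94), Col4a1 (-0.92), Pdgfrb (-0.84), Bgn (-0.71), Lama4 (-0.69) and Tpm2 (-0.56) were the other genes lower in E3. None of the 5 fibrillar collagens was called in untreated E3, at -1.04 to 0.01, and all 5 were lower after myelin.

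In E4, 31 of 35 genes were lower than in untreated WT and only Ccdc80 was higher (0.70 ± 0.18, adjusted p = 0.00127 by limma), where 29.2% of all tested genes were lower and 36.0% higher. Sparc, Myl9 and Thy1 were not called. After myelin 33 were lower and 0 higher (limma, 0 higher at an unadjusted p under 0.05), where 24.8% were lower and 28.9% higher, and Ccdc80 and Thy1 were not called. The median log2 fold change was -1.66 untreated and -2.12 after myelin. Both counts of lower genes include Postn, Lama4 and Col6a3, which passed the filter only through WT. Dcn was again furthest from WT, at 3.17, 4.19, 4.24, 5.51 and 2.69 scaled TPM in untreated E4, against 131, 125, 132, 126 and 106 in untreated WT (-4.68 ± 0.47, adjusted p = 1.49e-10). Thbs1 had 62.2, 90.6, 93.0, 110.0 and 76.5 in E4, against 738, 576, 548, 781 and 593 in WT (-2.90 ± 0.17, adjusted p = 1.47e-16).

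The myelin-treated libraries of the genotypes with human APOE, set against myelin-treated WT, gave the following levels. Col1a2 had 37.6, 27.1, 31.2, 39.1 and 38.1 scaled TPM in E4 and 78.3, 60.6, 65.3 and 93.7 in E3, against 341, 221, 313, 249 and 245 in WT. Col3a1 had 11.9, 12.2, 11.3, 18.03 and 13.2 scaled TPM in E4 and 24.2, 19.1, 29.6 and 34.9 in E3, against 172, 86.9, 114, 148 and 101 in WT. Col4a1 had 25.0, 24.4, 27.6, 35.5 and 33.1 scaled TPM in E4 and 70.1, 44.1, 74.6 and 86.8 in E3, against 271, 163, 288, 213 and 216 in WT. For these 3 collagens E4 lay below E3 and E3 below WT in every library. Bgn had 37.9, 33.1, 32.4, 38.4 and 33.2 scaled TPM in E4 and 89.5, 88.6, 87.5 and 109 in E3, against 323, 247, 337, 256 and 239 in WT. Dcn had 2.27, 1.46, 2.92, 3.94 and 2.76 scaled TPM in E4 and 4.37, 5.69, 7.07 and 7.68 in E3, against 112, 106, 117, 131 and 89.7 in WT. Mgp had 18.9, 15.9, 12.9, 28.3 and 18.8 scaled TPM in E4 and 41.8, 40.2, 48.2 and 69.3 in E3, against 257, 179, 204, 196 and 137 in WT. The same order held in every library for Bgn, Dcn and Mgp. Thbs1 had 56.6, 48.0, 52.5, 84.8 and 56.2 scaled TPM in E4 and 142, 148, 201 and 171 in E3, against 532, 313, 489, 549.8 and 559 in WT. Serpinh1 had 154, 154, 171, 182 and 176 scaled TPM in E4 and 308, 257, 292 and 336 in E3, against 814, 529, 990.2, 673 and 614 in WT. Pdgfrb had 4.05, 4.27, 4.08, 4.93 and 4.36 scaled TPM in E4 and 7.82, 6.93, 8.57 and 9.18 in E3, against 22.9, 15.9, 25.8, 22.0 and 20.4 in WT. It held again for Thbs1, Serpinh1 and Pdgfrb.

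Of the genes that follow, Fn1, Tagln and Postn had E4 below E3 and E3 below WT in every library, and the others overlapped in part. Col6a1 had 14.5, 15.6, 13.2, 19.4 and 17.7 scaled TPM in E4 and 19.9, 14.9, 18.5 and 23.6 in E3, against 50.1, 33.5, 48.7, 48.6 and 40.8 in WT. Fn1 had 113, 109.7, 115, 129 and 116 scaled TPM in E4 and 154, 147, 153 and 171 in E3, against 326, 212, 322, 270.4 and 279 in WT. Sparc had 877, 853, 917, 890.5 and 1013 scaled TPM in E4 and 1227, 1109.8, 842 and 1179 in E3, against 1602, 1199, 1724, 1133 and 1044 in WT. Sparc in E3 overlapped WT, and E4 and E3 overlapped for Col6a1 and Sparc. Acta2 had 647, 654, 566, 641 and 560.4 scaled TPM in E4 and 1109.6, 1177, 906 and 1245 in E3, against 1415, 1407, 1806, 1305 and 1126 in WT. Tagln had 376, 409, 348, 339.8 and 343 scaled TPM in E4 and 642, 589.9, 431 and 648 in E3, against 1002, 958, 1548, 908 and 767 in WT. Lox had 12.9, 8.19, 10.7, 26.3 and 11.8 scaled TPM in E4 and 24.5, 33.3, 56.9 and 40.7 in E3, against 118, 36.1, 67.7, 122 and 163 in WT. Acta2 in E3 was not called against WT (-0.34) and Tagln was lower (-0.82), as was Lox (-1.25), although the E3 and WT libraries overlapped for Lox. Postn had 1.27, 1.16, 1.71, 1.99 and 1.14 scaled TPM in E4 and 2.44, 2.70, 3.70 and 2.97 in E3, against 8.28, 9.56, 6.496, 8.89 and 9.24 in WT. Cspg4 had 13.5, 17.4, 14.0, 11.8 and 14.3 scaled TPM in E4 and 20.1, 14.1, 16.5 and 19.1 in E3, against 26.8, 18.9, 32.1, 21.2 and 21.5 in WT. Lum had 0.213, 0.0471, 0.450, 0.846 and 0.361 scaled TPM in E4 and 0.608, 0.351, 0.917 and 1.10 in E3, against 1.35, 1.29, 0.974, 1.86 and 0.966 in WT. E4 lay below every WT library for Postn, Cspg4 and Lum. Pdgfra had 0.434, 0.809, 0.841, 1.05 and 1.40 in E4 and 0.267, 1.35, 1.17 and 0.634 in E3, against 2.90, 1.40, 2.05, 3.22 and 2.43 in WT.

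Expressed as a share of the WT mean in untreated cells, the median gene was at 30.03% in E4 and 69.2% in E3. Dcn stood at 3.19% in E4 and 9.89% in E3, and Ccdc80 at 166% in E4 and 161% in E3. After myelin the median was 21.6% in E4 and 38.7% in E3. E3 and E4 share the WT libraries in these comparisons. Astrocyte marker sums in WT were lower than in either human APOE genotype, with 11 of 12 markers called higher in untreated E4 and also 11 in untreated E3, and their part in the result was not tested.

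**Figure D5:**
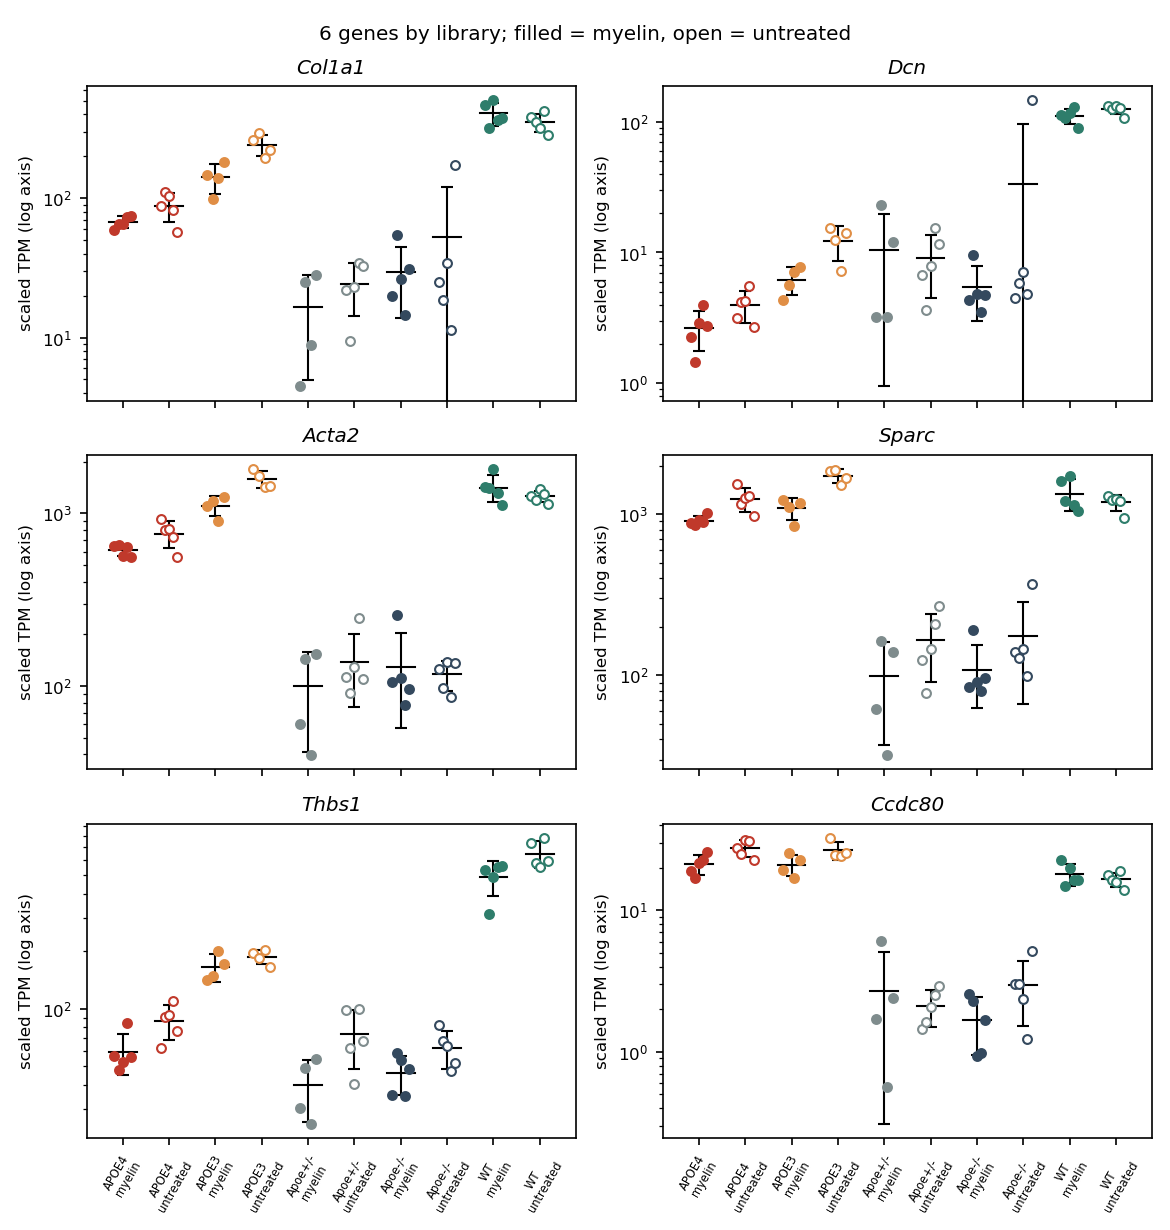
Scaled TPM (log y axis) of Col1a1, Dcn, Acta2, Sparc, Thbs1 and Ccdc80 in every library by genotype and treatment, filled for myelin and open for untreated, with group mean ± SD (a bar that reaches below the axis runs off it). Dcn is high in WT and in 1 untreated Apoe-/- library, Thbs1 is highest in WT, and Ccdc80 is lowest in Apoe+/- and Apoe-/-.

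In untreated Apoe-/- cells all 35 tested genes were lower than in WT, where 32.0% of all tested genes were lower and 25.9% higher, and after myelin all 35 again, where 31.1% were lower and 24.2% higher. The median log2 fold change was -3.31 untreated and -3.54 after myelin, and no tested gene was higher (limma, 0 higher at an unadjusted p under 0.05 too). In Apoe+/- cells, which keep 1 Apoe allele and were fitted with library weights over all 47 libraries, the 35 were also lower, where 31.5% of tested genes were lower and 25.9% higher untreated, and 33.1% and 24.7% after myelin. Their median log2 fold change was -3.22 untreated and -4.31 after myelin. In both genotypes the 35 include Postn, Lama4 and Col6a3, which passed the filter only through WT. Their calls against WT are thus partly fixed by the filter.

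Acta2 had 126, 97.7, 137, 86.3 and 136 scaled TPM in untreated Apoe-/- cells, against 1264, 1189, 1393, 1299.9 and 1139 in untreated WT (-3.44 ± 0.19, adjusted p = 1.58e-17 by limma). In untreated Apoe+/- cells it had 113, 91.0, 129, 247 and 109, against the same WT libraries (-3.19 ± 0.27, adjusted p = 1.41e-13). Serpinh1 had 57.3, 42.9, 74.8, 37.02 and 156 in Apoe-/- cells, against 749, 623, 699, 729 and 565 in WT (-3.37 ± 0.24, adjusted p = 2.43e-14). No Apoe-/- or Apoe+/- library reached the lowest WT library for Acta2, and no Apoe-/- library for Serpinh1. By size the genes furthest below WT in untreated Apoe-/- cells were Thbs2 (-3.87), Col4a1 (-3.74), Bgn (-3.67) and Col1a2 (-3.57), an order that rests on replicate 5: without it they were Col3a1 (-4.37), Mgp (-4.34), Dcn (-4.26) and Col1a2 (-4.19). Those furthest below WT in untreated Apoe+/- cells were Col3a1 (-4.57), Mgp (-4.19), Thbs2 (-4.17) and Col1a1 (-3.98).

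In untreated cells of these genotypes the fibrillar collagens were low except in Apoe-/- replicate 5. Col1a1 had 25.0, 18.6, 34.1, 11.4 and 175 scaled TPM in Apoe-/- and 21.9, 9.50, 23.2, 34.3 and 32.6 in Apoe+/-, against 386, 350.2, 321, 420.1 and 287 in WT (-3.41 log2 in Apoe-/-, -3.98 in Apoe+/-). Col1a2 had 12.7, 11.4, 17.6, 8.08 and 113 scaled TPM in Apoe-/- and 14.3, 7.91, 14.3, 24.0 and 23.3 in Apoe+/-, against 277, 243, 226, 279.6 and 175 in WT (-3.57 log2 in Apoe-/-, -3.89 in Apoe+/-). Col3a1 had 4.71, 4.61, 6.12, 3.78 and 168 scaled TPM in Apoe-/- and 3.79, 2.15, 2.83, 5.30 and 6.09 in Apoe+/-, against 148, 103, 107, 175 and 80.2 in WT (-3.40 log2 in Apoe-/-, -4.57 in Apoe+/-). Apoe-/- replicate 5 was above the lowest WT library for Col3a1 alone of the 3, and no Apoe+/- library reached WT for any of them.

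Of the basement membrane and type VI collagens, Col4a1 had 13.9, 13.1, 18.4, 8.94 and 31.5 scaled TPM in Apoe-/- and 13.9, 9.57, 14.3, 23.7 and 33.0 in Apoe+/-, against 251, 205, 209, 252 and 199.8 in WT (-3.74 log2 in Apoe-/-, -3.76 in Apoe+/-). Col6a1 had 2.91, 2.31, 3.45, 2.00 and 35.3 scaled TPM in Apoe-/- and 3.97, 0.809, 1.06, 2.41 and 5.73 in Apoe+/-, against 41.1, 37.4, 37.8, 46.5 and 33.1 in WT (-2.80 log2 in Apoe-/-, -3.53 in Apoe+/-). The Apoe-/- and WT libraries were apart for Col4a1 and overlapped for Col6a1 through Apoe-/- replicate 5. Lox, the crosslinking oxidase, had 13.9, 14.4, 13.8, 11.04 and 25.3 scaled TPM in Apoe-/- and 15.1, 12.8, 8.12, 28.8 and 14.2 in Apoe+/-, against 94.4, 50.1, 56.2, 40.5 and 38.6 in WT (-1.75 log2 in Apoe-/-, -1.53 in Apoe+/-). No Apoe-/- or Apoe+/- library reached WT for Lox.

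The glycoproteins include fibronectin, Sparc and the thrombospondins. Fn1 had 29.2, 25.7, 24.3, 21.4 and 87.2 scaled TPM in Apoe-/- and 37.9, 29.7, 33.4, 40.0 and 46.8 in Apoe+/-, against 291, 258, 248, 306 and 241 in WT (-3.02 log2 in Apoe-/-, -2.82 in Apoe+/-). Sparc had 139, 127, 145, 98.7 and 367 scaled TPM in Apoe-/- and 125, 78.0, 146, 209 and 267 in Apoe+/-, against 1299, 1227, 1246, 1200.1 and 944 in WT (-2.91 log2 in Apoe-/-, -3.14 in Apoe+/-). Thbs1 had 82.6, 67.7, 63.7, 47.1 and 52.2 scaled TPM in Apoe-/- and 98.7, 62.3, 40.6, 99.4 and 67.6 in Apoe+/-, against 738, 576, 548, 781 and 593 in WT (-3.36 log2 in Apoe-/-, -2.85 in Apoe+/-). All 3 had Apoe-/- and Apoe+/- libraries below every WT library. Mgp had 4.79, 6.43, 16.2, 5.09 and 292 scaled TPM in Apoe-/- and 4.81, 7.63, 12.1, 15.7 and 9.11 in Apoe+/-, against 173, 171, 182, 171 and 131 in WT (-3.31 log2 in Apoe-/-, -4.19 in Apoe+/-). Postn had 0.897, 0.900, 1.99, 0.711 and 2.99 scaled TPM in Apoe-/- and 1.18, 0.839, 0.587, 1.14 and 2.41 in Apoe+/-, against 9.59, 7.55, 8.198, 7.72 and 7.91 in WT (-1.96 log2 in Apoe-/-, -2.13 in Apoe+/-). For Mgp, Apoe-/- replicate 5 exceeded every WT library, and for Postn the groups were apart.

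Of the proteoglycans and receptors, Bgn had 18.4, 14.7, 19.4, 13.9 and 37.7 scaled TPM in Apoe-/- and 20.1, 11.9, 17.8, 25.9 and 50.6 in Apoe+/-, against 281, 264, 263, 272 and 223 in WT (-3.67 log2 in Apoe-/-, -3.67 in Apoe+/-). Dcn had 4.53, 5.84, 7.09, 4.80 and 146 scaled TPM in Apoe-/- and 6.71, 3.63, 7.93, 15.3 and 11.7 in Apoe+/-, against 131, 125, 132, 126 and 106 in WT (-3.37 log2 in Apoe-/-, -3.86 in Apoe+/-). Dcn in Apoe-/- replicate 5 was above every WT library, and the other 4 were far below. Pdgfrb had 1.01, 0.802, 1.40, 0.571 and 2.05 scaled TPM in Apoe-/- and 1.19, 0.843, 1.39, 0.989 and 5.20 in Apoe+/-, against 24.1, 18.9, 16.0, 23.5 and 15.5 in WT (-3.26 log2 in Apoe-/-, -3.22 in Apoe+/-). Cspg4 had 4.93, 4.86, 5.80, 3.70 and 6.68 scaled TPM in Apoe-/- and 5.80, 5.497, 10.8, 7.94 and 22.8 in Apoe+/-, against 22.5, 18.6, 19.5, 23.6 and 17.6 in WT (-1.80 log2 in Apoe-/-, -1.44 in Apoe+/-). Tagln, of the contractile genes, had 85.9, 71.5, 88.4, 46.2 and 102 scaled TPM in Apoe-/- and 85.9, 71.1, 139, 192 and 161 in Apoe+/-, against 967, 870.0, 1018, 870.2 and 799 in WT (-3.55 log2 in Apoe-/-, -3.06 in Apoe+/-). Apoe+/- and WT libraries overlapped for Cspg4, through Apoe+/- replicate 5 alone, and not for the other 4 of these genes. Lum had 0.258, 0.0471, 0.106, 0.0599 and 1.28 in Apoe-/- and 0.0613, 0.243, 0.476, 0.0909 and 1.40 in Apoe+/-, and Pdgfra 0.434, 0.325, 0.386, 0.459 and 1.06 in Apoe-/- and 0.443, 0.133, 0.962, 0.598 and 4.71 in Apoe+/-, with the WT libraries as given above. For both genes Apoe+/- replicate 5, the library with 0.468% coding content, reached WT, and for Lum so did Apoe-/- replicate 5.

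After myelin, Col1a1 had 19.8, 54.7, 26.5, 14.5 and 31.2 scaled TPM in Apoe-/- and 4.46, 24.9, 8.89 and 28.2 in Apoe+/-, against 469, 318, 505, 366 and 377 in WT. Acta2 had 105, 257, 111, 77.2 and 95.8 in Apoe-/- and 60.1, 144, 39.7 and 153 in Apoe+/-, against 1415, 1407, 1806, 1305 and 1126 in WT. Neither gene had a library of these genotypes near WT. By size the genes furthest below WT were Mgp (-4.26), Col3a1 (-4.23) and Dcn (-4.18) in Apoe-/-, and Col3a1 (-6.09), Serpinh1 (-5.55) and Col4a2 (-5.18) in Apoe+/-.

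The other genes were low in these genotypes too, as their lowest, median and highest myelin-treated libraries show. Col1a2 had 9.24, 15.6 and 45.5 scaled TPM in Apoe-/- and 4.12, 13.1 and 19.6 in Apoe+/-, against 221, 249 and 341 in WT. Col3a1 had 3.25, 4.86 and 12.5 scaled TPM in Apoe-/- and 0.491, 2.27 and 8.46 in Apoe+/-, against 86.9, 114 and 172 in WT. Col4a1 had 11.8, 17.1 and 23.3 scaled TPM in Apoe-/- and 6.79, 12.3 and 23.6 in Apoe+/-, against 163, 216 and 288 in WT. For Col1a2, Col3a1 and Col4a1 every library of both genotypes lay below WT. Col6a1 had 1.85, 2.89 and 4.38 scaled TPM in Apoe-/- and 0.539, 1.60 and 3.72 in Apoe+/-, against 33.5, 48.6 and 50.1 in WT. Serpinh1 had 43.1, 49.6 and 117 scaled TPM in Apoe-/- and 9.39, 36.6 and 74.3 in Apoe+/-, against 529, 673 and 990.2 in WT. Lox had 10.9, 17.2 and 41.0 scaled TPM in Apoe-/- and 4.93, 11.6 and 24.1 in Apoe+/-, against 36.1, 118 and 163 in WT. For Col6a1, Serpinh1 and Lox every library of both genotypes lay below WT, except that the highest value of Lox in Apoe-/- reached the lowest of WT. Fn1 had 18.6, 26.9 and 37.7 scaled TPM in Apoe-/- and 25.3, 31.6 and 38.04 in Apoe+/-, against 212, 279 and 326 in WT. Sparc had 79.9, 91.0 and 190.5 scaled TPM in Apoe-/- and 32.0, 100.4 and 164 in Apoe+/-, against 1044, 1199 and 1724 in WT. Thbs1 had 34.96, 48.3 and 58.7 scaled TPM in Apoe-/- and 25.0, 39.7 and 54.6 in Apoe+/-, against 313, 532 and 559 in WT. For Fn1, Sparc and Thbs1 every library of both genotypes lay below WT.

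Mgp had 4.71, 8.90 and 19.4 scaled TPM in Apoe-/- and 7.14, 10.2 and 12.7 in Apoe+/-, against 137, 196 and 257 in WT. Postn had 0.939, 1.47 and 2.02 scaled TPM in Apoe-/- and 0.551, 1.02 and 1.48 in Apoe+/-, against 6.496, 8.89 and 9.56 in WT. Bgn had 13.7, 17.2 and 33.1 scaled TPM in Apoe-/- and 5.59, 19.8 and 33.0 in Apoe+/-, against 239, 256 and 337 in WT. For Mgp, Postn and Bgn every library of both genotypes lay below WT. Dcn had 3.53, 4.72 and 9.64 scaled TPM in Apoe-/- and 3.19, 7.64 and 23.1 in Apoe+/-, against 89.7, 112 and 131 in WT. Lum had 0, 0.0340 and 0.110 scaled TPM in Apoe-/- and 0.0242, 0.256 and 0.501 in Apoe+/-, against 0.966, 1.29 and 1.86 in WT. Pdgfra had 0.0829, 0.351 and 0.378 scaled TPM in Apoe-/- and 0.143, 0.533 and 1.46 in Apoe+/-, against 1.40, 2.43 and 3.22 in WT. For Dcn, Lum and Pdgfra every library of both genotypes lay below WT, except that the highest value of Pdgfra in Apoe+/- reached the lowest of WT. Pdgfrb had 0.563, 0.705 and 1.73 scaled TPM in Apoe-/- and 0.511, 0.831 and 2.03 in Apoe+/-, against 15.9, 22.0 and 25.8 in WT. Cspg4 had 4.80, 5.74 and 8.10 scaled TPM in Apoe-/- and 5.63, 6.20 and 13.5 in Apoe+/-, against 18.9, 21.5 and 32.1 in WT. Tagln had 45.9, 61.3 and 116 scaled TPM in Apoe-/- and 29.9, 74.9 and 132 in Apoe+/-, against 767, 958 and 1548 in WT. For Pdgfrb, Cspg4 and Tagln every library of both genotypes lay below WT.

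Thy1, Lox and Cspg4 were the least reduced in untreated Apoe-/- and Apoe+/- cells. Thy1 was at -1.57 log2 in Apoe-/- and -1.27 in Apoe+/- cells. Cell cycle markers were lower as well, with 8 of 8 called lower and sums of 104 ± 15.4 scaled TPM in untreated Apoe-/- and 289 ± 24.9 in untreated WT cells, while of 14 microglia markers 6 were higher and 3 lower, with sums of 23871 ± 1653 in Apoe-/- and 18330.2 ± 1169 in WT. Over all tested genes 32.0% were lower and 25.9% higher in untreated Apoe-/- than in WT. The part of these markers in the result was not tested.

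Untreated Apoe-/- replicate 5 held the highest value of its group for 33 of the 37 genes, and 25 were over 2 times the median of the other 4 libraries. Mgp had 292 scaled TPM there, against 4.79 to 16.2 in the other 4 (50.6 times their median), Col3a1 168, against 3.78 to 6.12 (36.0 times), and Dcn 146, against 4.53 to 7.09 (27.4 times). Next came Col6a2, at 17.7, Lum at 15.5, Col6a1 at 13.5, Col1a2 at 9.44 and Col1a1 at 8.002 times. The contractile genes did not follow: Acta2 was at 1.21 times, Tagln at 1.30, Myl9 at 0.896, and the glycoprotein Thbs1 at 0.795 times. Of the promoters shown above, those of Col1a2 and Col3a1 belong to the genes that were high in this library and those of Acta2 and Myl9 to genes that were not. The sum of the 18 other fibroblast markers was 170.2 scaled TPM in this library, against 16.6 to 28.5 in the other 4, while microglia markers summed to 25432, against 21845 to 25721. The part of the fibroblast markers in the result was not tested. With this library left out, all 35 genes were still lower in untreated Apoe-/- than in WT, with Mgp at -4.34 log2 in place of -3.31, Col3a1 at -4.37 in place of -3.40 and Dcn at -4.26 in place of -3.37. Col1a2 was then at -4.19 in place of -3.57, Col1a1 at -4.01 in place of -3.41, Col6a1 at -3.46 in place of -2.80 and Col6a2 at -3.14 in place of -2.46.

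In E4, 3 of 35 were lower after myelin and 0 higher, where 7.57% of all tested genes were lower and 7.42% higher. In E3, 8 were lower and 0 higher, where 5.46% were lower and 3.72% higher. In WT, 1 was higher and 0 lower, where 6.49% were higher and 0.573% lower. The E4 count is near the share over all tested genes, and the single call in WT is under it. In Apoe-/- cells limma called 0 in either direction (5 lower and 0 higher at an unadjusted p under 0.05), where 2.02% were lower and 1.28% higher, and in Apoe+/- cells 11 were lower and 0 higher, where 3.11% were lower and 1.04% higher. At an unadjusted p under 0.05, limma gave 13 lower and 0 higher in E4, 22 lower and 0 higher in E3, 17 lower and 0 higher in Apoe+/-, and 1 lower and 2 higher in WT. The median log2 fold change was -0.43 in E4, -0.62 in E3, -0.82 in Apoe+/-, -0.17 in Apoe-/- and 0.15 in WT. These counts moved with single libraries: without untreated Apoe-/- replicate 5 they were 8 in E4 and 16 in E3, and the Apoe+/- count was 0 without myelin replicate 3, 3 without myelin replicate 2, 19 without untreated replicate 2 and 25 without untreated replicate 1.

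In E3 the genes lower after myelin were Col5a1 (-0.84), Col4a2 (-0.82), Col4a1 (-0.80), Tpm2 (-0.77), Nid1 (-0.76), Bgn (-0.76), Myl9 (-0.68) and Loxl2 (-0.67), so 3 of 4 basement membrane genes. Col4a1 had 70.1, 44.1, 74.6 and 86.8 scaled TPM in myelin-treated E3, against 133, 111, 104 and 123 in untreated E3 (-0.80 ± 0.24, adjusted p = 0.0316 by limma), and these libraries did not overlap. The E3 count was 4 without myelin replicate 2 or untreated replicate 4, 2 without untreated replicate 2, and 1 without myelin replicate 3 or untreated replicate 1. In E4 the 3, a count near the share over all tested genes, were Cald1 (-0.80), Tpm2 (-0.77) and Thbs1 (-0.53), or 6 genes without untreated replicate 5. Cald1 had 125, 143, 104, 94.2 and 101 in myelin-treated E4, against 239.9, 226, 228, 182 and 128 in untreated E4 (-0.80 ± 0.19, adjusted p = 0.00449), with overlap between them.

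In WT the gene higher after myelin was Loxl1, at 51.8, 22.0, 43.4, 38.3 and 36.7 scaled TPM in myelin-treated cells, against 30.4, 21.1, 21.1, 17.4 and 16.5 in untreated cells (0.80 ± 0.20, adjusted p = 0.00928 by limma), and leaving out myelin replicate 1 ended the call, while 2 genes were called when myelin replicate 2 was left out. The myelin and untreated libraries overlapped for Loxl1. In Apoe+/- cells the genes furthest down were Serpinh1 (-1.51), Sparc (-1.51), Thbs1 (-1.48), Col4a2 (-1.42) and Loxl2 (-1.40). In Apoe-/- cells 1 gene was called without myelin replicate 2 and 2 without untreated replicate 4.

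The difference between myelin responses was tested as an interaction. Between E4 and E3 limma called 0 of 35 (0 at an unadjusted p under 0.05 too), where 0.00940% of all tested genes were higher and 0% lower. The myelin change of Loxl1 was lower in E3 than in WT (-1.38 ± 0.30, adjusted p = 0.0128), the 1 call there, where 2.16% of tested genes were lower and 1.62% higher. In E4 against WT, Loxl1 (-1.20 ± 0.28, adjusted p = 0.0113), Tpm2 (-0.92 ± 0.26) and Cald1 (-0.90 ± 0.27) were lower, where 3.57% were lower and 2.68% higher. In Apoe-/- against WT, Loxl1 was lower (-1.13 ± 0.28, adjusted p = 0.0215), where 3.29% were lower and 1.02% higher. The single calls of 35 for E3 and for Apoe-/- are near the shares over all tested genes. No gene was higher in these 3 comparisons, which share the WT libraries, also at an unadjusted p under 0.05. Without untreated Apoe-/- replicate 5 the counts were 8 for E3 and 5 for E4.

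These small counts also moved with single libraries. For E3 against WT the count was 2 without E3 myelin replicate 1, 4 without E3 myelin replicate 4, 7 without E3 untreated replicate 3, 5 without WT untreated replicate 1, and 5, 3 and 9 when WT myelin replicate 2, 4 or 5 was left out in turn. For E4 against WT it was 1 without any one of E4 myelin replicates 3, 4 and 5, E4 untreated replicates 1 and 3, WT myelin replicates 1 and 3, or WT untreated replicates 4 and 5. For Apoe-/- against WT it was 2 without Apoe-/- myelin replicate 2 or untreated replicate 4, and 0 without WT myelin replicate 1 or WT untreated replicates 4 or 5.

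Loxl1 had 9.28, 11.4, 10.1, 11.5 and 10.0 scaled TPM in myelin-treated E4, against 19.0, 10.8, 14.97, 14.6 and 12.2 in untreated E4, and 18.2, 17.7, 17.8 and 20.03 in myelin-treated E3, against 34.2, 28.5, 20.9 and 30.2 in untreated E3. In Apoe-/- cells it had 2.40, 4.61, 2.66, 2.29 and 3.55 after myelin, against 3.80, 4.50, 3.39, 2.29 and 7.60 untreated. Its myelin-treated libraries were lower on average in these 3 genotypes and higher in WT.

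Genes around the same pathways gave a mixed picture. Over all tested genes, 10.2% were lower and 9.41% higher in untreated E4 against E3. The shares were 32.0% and 25.9% in untreated Apoe-/- against WT. Of 19 genes of collagen hydroxylation and processing 17 were tested, and in untreated E4 against E3 1 was higher and 5 lower, among them the foldase Fkbp10 (-1.18, adjusted p = 8.29e-05 by limma) and the procollagen enhancer Pcolce (-1.34, adjusted p = 7.76e-04), with the prolyl hydroxylase P4ha3 higher (0.80, adjusted p = 6.24e-04). Of 17 tested TGF-β pathway genes, 1 was higher and 5 lower in untreated E4. Among those lower were the TGF-β target Ctgf (-1.56) and the latent TGF-β binding protein Ltbp2 (-1.44), while the ligands Tgfb1 (0.09), Tgfb2 (0.08) and Tgfb3 (-0.01) were not called and Smad3 was higher (0.53). In untreated Apoe-/- against WT, 1 of the 17 was higher and 10 lower, including Cyr61 (-3.31) and Ctgf (-3.27).

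Matrix receptors and PDGF ligands also gave calls in both directions. The shares over all tested genes given for the pathway genes apply here too. Of 8 tested receptors, 1 was higher and 4 lower in untreated E4 against E3, the others lower being the integrin chains Itga5 (-0.66) and Itgb1 (-0.62) and the hyaluronan receptor Cd44, with Ddr1, a collagen receptor of epithelial and glial cells, being higher (0.61, adjusted p = 0.00475 by limma) and Ddr2, the fibroblast collagen receptor, lower (-0.75, adjusted p = 0.0175). In untreated Apoe-/- against WT both were lower, Ddr2 by more (-2.90, and Ddr1 -1.23). Of the PDGF ligands, Pdgfc was lower in untreated E4 than in E3 (-0.45), and Pdgfb (0.24) and Pdgfa (0.07) were not called. In untreated Apoe-/- against WT, Pdgfc was lower (-1.36) and Pdgfb higher (1.30).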

How the data were processed

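Values were deposited by the authors as TPM in 1 table of 53697 genes and 47 libraries. Per the submitters' processing notes, Salmon 0.13.1, limma 3.40.6 and the mm10 build were used, with no role stated. Per the labels' protocols, RNA came from RNeasy columns and libraries from a low-input polyA kit.

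Here, TPM were rescaled to 1000000 over 21832 nuclear coding genes and divided by a trimmed mean of log ratios (30% of ratios and 5% of levels trimmed, factors 0.634 to 1.11). Genes at 5 or more in at least 4 libraries were tested by limma 3.58.1 (R 4.3.3) on log2(scaled TPM + 1), so fold changes of low genes are understated. The 38 libraries of E4, E3, Apoe-/- and WT shared 1 fit with a mean-dependent spread. Comparisons of Apoe+/- used all 47 libraries with library weights. P-values were two-sided and adjusted by Benjamini-Hochberg over 10638 genes at 0.05. The script was tested on simulated data. Replicate numbers did not pair the libraries. Named genes were the 37 members, with values for 20, up to 12 called members per comparison by size, and up to 4 called genes of every other list. Members and lists were chosen with earlier results of these data known. Alternatives are given in the closing section. Coordinates are GENCODE vM21 on GRCm38 and matched 35 of 37 gene identifiers, and promoters are RefSeq GRCm38.p6. One gene of the pathway lists is not reported here.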

Additional observations from a re-analysis of the deposited data

Results flagged for a closer look

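Single libraries stood apart from their group by Dixon's test in 21 of 210 checks of 20 genes and the summed level, where chance gives about 1 in 20. Untreated Apoe-/- replicate 5 was the high one for 8 of them: Mgp at 292 scaled TPM, Col3a1 at 168, Dcn at 146, Col1a2 at 113, Fn1 at 87.2, Col6a1 at 35.3, Lum at 1.28 and Pdgfra at 1.06. In myelin-treated Apoe-/- cells Sparc (190.5) and Bgn (33.1) were high in replicate 2, and Pdgfra was low in replicate 5 (0.0829).

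Untreated WT replicate 5 was the low library of its group for Sparc (944), Bgn (223), Mgp (131) and Dcn (106). Thbs1 was low in myelin-treated WT replicate 2 (313) and high in myelin-treated E4 replicate 4 (84.8). Bgn was high in myelin-treated E3 replicate 4 (109) and was low in untreated E4 replicate 5 (33.8). Pdgfrb was high in untreated Apoe+/- replicate 5 (5.20), the library with 0.468% coding content, and Cspg4 was low in untreated E3 replicate 3 (19.2).

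The limma interaction term against WT was called for Loxl1 in E3 (-1.38 log2), E4 (-1.20) and Apoe-/- (-1.13), and for Tpm2 (-0.92) and Cald1 (-0.90) in E4. For E3 and Apoe-/- this was 1 call of 35, near the 2.16% and 3.29% of all tested genes called lower. All of these comparisons share the WT libraries, and none of the calls stood with all 47 libraries unweighted.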

How the results depend on the processing

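Counts are genes of the 37 called. For alternative fits, here and in the sections above, the shares over all tested genes are not given, so their counts are not set against a background. Over 5644 alternatives of the 326 called gene results, 5357 kept the call, 285 lost it and 2 changed sign, both without myelin-treated Apoe+/- replicate 3: the myelin change of Bgn (0.20) and Cald1 (0.042), whose values without single libraries ran from -1.53 to 0.20 and from -1.95 to 0.042.

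With all 47 libraries unweighted, E4 against E3 gave 19 untreated and 13 after myelin, E3 against WT gave 9 untreated, and myelin gave 0 in E4, E3 and WT and 4 in Apoe+/-. All 3 interactions with WT gave 0. With library weights, E4 against E3 after myelin gave 31, the E3 interaction 6, and myelin 6 in E4, 5 in E3, 2 in WT and 1 in Apoe-/-. Fitting only the groups compared gave 28 for untreated E3 against WT, myelin counts of 15 in E4, 25 in E3, 0 in WT and 0 in Apoe+/-, and interactions of 14 (E3), 5 (E4) and 0 (Apoe-/-). Without untreated Apoe-/- replicate 5, untreated E3 against WT gave 23, myelin gave 8 in E4 and 16 in E3, and the interactions 8 (E3) and 5 (E4).

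With the replicate number as a block, myelin gave 8 in E4 and 2 in Apoe+/-, and the interactions 11 (E3) and 5 (E4). Same-numbered libraries deviated together in no regular way (correlations -0.53 to 0.479), so the numbers were not read as pairing. Without the library factors myelin in E3 gave 5. With no filter on low values myelin gave 4 in E3 and 1 in Apoe+/-, and the interactions 1 (E4) and 0 (Apoe-/-). Without the Apoe+/- libraries under 6% coding content, unweighted, myelin in Apoe+/- gave 0.

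Leaving out single libraries gave myelin counts of 2 to 6 in E4, 1 to 7 in E3, 0 to 2 in WT, 0 to 2 in Apoe-/- and 0 to 25 in Apoe+/-, and interactions of 1 to 9 (E3), 1 to 4 (E4) and 0 to 2 (Apoe-/-). The cause of these changes was not tested. Depth is unknown, and low coding content limits the Apoe+/- libraries.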
